A study of Mus musculus with 6 samples.

Results

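The HOX cluster genes encode the homeodomain transcription factors of the Hoxa, Hoxb, Hoxc and Hoxd clusters. They were taken as every gene symbol made of Hox, a cluster letter from a to d, and a number. All 39 were found among the 50763 gene symbols measured, 11 in Hoxa, 10 in Hoxb, 9 in Hoxc and 9 in Hoxd. RNA came from bone marrow CD34- KSL cells, the lineage-negative, c-Kit-positive, Sca-1-positive and CD34-negative cells in which long-term haematopoietic stem cells (HSC) are enriched. Every mouse carried Tal1-tTA, a transactivator that doxycycline switches off, under control of regulatory sequence of Tal1, a blood stem cell gene, together with its target transgene TRE-EGFR-tr. The transgene encodes a truncated epidermal growth factor receptor without the kinase domain. The EGFR-DN group (n = 3) received no doxycycline, so that the transgene was on beside the normal Egfr gene. The EGFR-WT group (n = 3) drank doxycycline at 0.2 g/L, which switches the transgene off and leaves the normal Egfr gene. Doxycycline and the truncated receptor therefore cannot be told apart. The sources used here do not give the age of the mice. Since nothing in the labels says that replicates came from different mice, the p-values reflect only sample-to-sample spread, which may be technical.

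HOX genes lie in each cluster in the order in which they are used along the body axis, and genes at the same position in different clusters form a paralogue group, numbered from 1 at the anterior end to 13 at the posterior end. The proteins bind DNA with partners of the TALE homeodomain class, the PBX and MEIS proteins. The MLL methyltransferase complex keeps HOX clusters active and Polycomb complexes keep them silent. In blood, Hoxa and Hoxb genes are known for high activity in stem and progenitor cells and for loss of activity as cells mature, and Hoxa9 with its partner Meis1 is a driver of acute leukaemia when it stays on.

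Total counts per library were between 24073204 and 36032504. The targeted gene, Egfr, was counted 4022, 4758 and 991 times in EGFR-DN replicates 1 to 3 and 6 times in every EGFR-WT replicate, so the libraries followed their labels. Egfr RNA in EGFR-WT was thus near the detection limit, and receptor protein was not measured here. Among EGFR-DN libraries, replicate 3 had fewer Egfr counts also relative to its total (24073204, against 33079122 and 34186857 in replicates 1 and 2). EGFR-DN replicate 3 stood apart from the other libraries. Genes that collect ribosomal RNA reads took 25.4% of its counts against at most 6.15% elsewhere, and ribosomal protein genes took 0.914% against at least 2.49%. Mitochondrial genes took 2.99% against at most 1.29%. HOX results that change without that library are given with and without it. All 10 HSC markers on the list were detected. Levels are in CPM, counts relative to the TMM-scaled library total. Among the markers, Procr, chosen after its values were seen, was at 74.9, 43.01 and 50.4 CPM in EGFR-WT. In EGFR-DN it was at 22.9, 32.4 and 15.1 CPM. Other markers went the other way. The log2 fold change, EGFR-DN over EGFR-WT, was below 0 for 7 of the 10 (49.0% of all genes) and above 0 for 3. The EGFR-DN libraries lay wholly below the EGFR-WT libraries for 3 of the 10 markers (8.72% of all genes). The summed level of the 10 overlapped between groups.

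Nearly all HOX transcripts of these cells came from the Hoxa and Hoxb clusters. A mean of at least 1 CPM over the 6 libraries was reached by 15 of the 39 genes, 8 of Hoxa, 6 of Hoxb, 1 of Hoxc (Hoxc6) and 0 of Hoxd. Summed over each cluster, Hoxa genes had 147.8 ± 20.6 CPM in EGFR-WT (SD, n = 3) and Hoxb genes 65.1 ± 16.2. Hoxc genes had 2.32 ± 1.04 CPM and Hoxd genes 0.0669 ± 0.0359. By position, 6 of 12 genes in paralogue groups 1 to 4, 7 of 11 in groups 5 to 8 and 2 of 7 in groups 9 and 10 reached that level. None of the 9 genes in groups 11 to 13 did, in any cluster. The edge was sharp within Hoxa, where Hoxa10 averaged 28.5 CPM and its neighbour Hoxa11 had 0 or 1 count in each library.

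**Figure D1:**
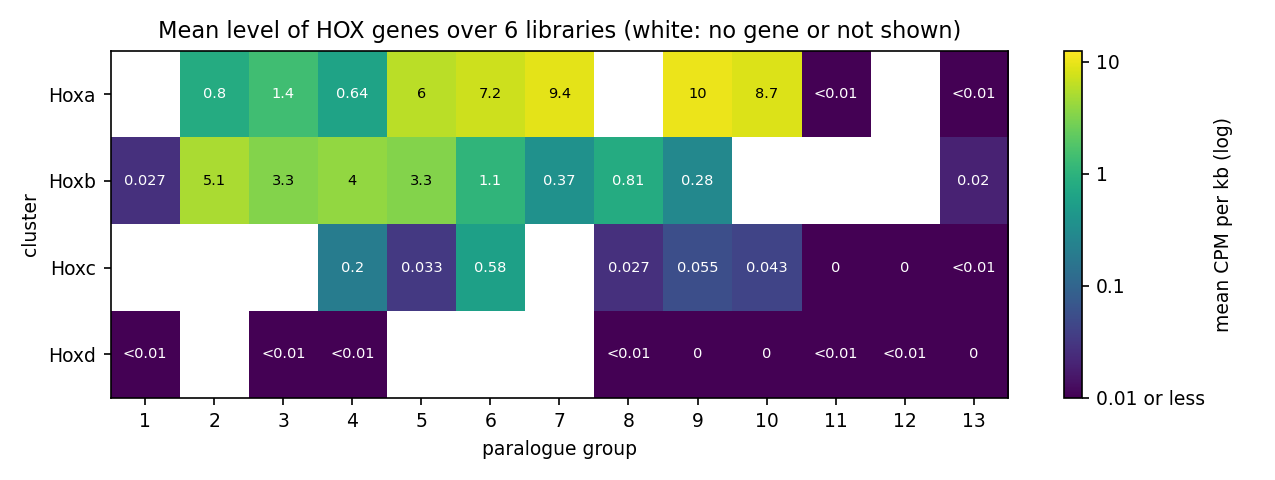
Mean level of HOX genes over the 6 libraries, in CPM per kb of exon (colour on a log scale, with values of 0.01 or less at the lowest colour), by cluster (rows) and paralogue group (columns, 1 to 13). White squares are positions with no gene or not shown. The bright squares are Hoxa5 to Hoxa10 and Hoxb2 to Hoxb5, and every Hoxd square is at the lowest colour.

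Levels were compared between genes per kb of annotated exon. Hoxa9, which promotes stem cell expansion, was highest at 10.3 ± 1.61 CPM per kb (SD over 6 libraries). Hoxa7 followed at 9.37 ± 1.05, and Hoxa10, which acts in stem cells and in myeloid maturation, at 8.72 ± 2.66. Hoxa6 had 7.24 ± 3.67 CPM per kb and Hoxa5 5.97 ± 2.09. These are middle-range levels, since Hoxa9 lay at the 68.0th percentile of 16713 tested genes with a known length and Hoxa5 at the 53.9th percentile. Among Hoxb genes, Hoxb2 had 5.14 ± 2.54 CPM per kb, and Hoxb4, known to expand HSC when overexpressed, had 3.99 ± 0.743. Hoxb3 was at 3.35 ± 0.878 and Hoxb5, used as a reporter of long-term HSC, at 3.31 ± 1.01. Hoxa3 (1.43), Hoxb6 (1.08), Hoxb8 (0.810), Hoxa2 (0.801), Hoxa4 (0.637) and Hoxc6 (0.576) completed the 15. By range over the libraries, no gene in this order was set apart from its next neighbour, since all 14 neighbouring pairs overlapped. Ranges do not compare the genes within each library. Hoxa9 was above Hoxa7 in 4 of 6 libraries. Hoxb5 was above Hoxa3 in 6 of 6. Taking the longest transcript in place of all exons gave Hoxa9 17.8, Hoxa7 13.3 and Hoxa3 3.31 CPM per kb, placed Hoxb3 above Hoxb4, and brought Hoxa3 level with Hoxb5 (3.31 each).

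The remaining 24 genes were low, and 21 of them were at or near the detection limit. Hoxb9 (7 to 52 counts), Hoxc4 (7 to 30) and Hoxb7 (11 to 26) averaged under 1 CPM but passed the filter on low counts. The other 21 had at most 11 counts in any library and were not tested. Of these, Hoxc11, Hoxc12, Hoxd9, Hoxd10 and Hoxd13 had 0 counts in all 6 libraries, where 3 counts correspond to between 0.0799 and 0.152 CPM. The 9 Hoxd genes together had 9 counts over all libraries. Just inside the limit of 1 CPM was Hoxa4, at 1.01 CPM, and just outside it Hoxb9, at 0.713. Hoxc8 had 11 counts in EGFR-WT replicate 1 and at most 2 elsewhere, and Hoxc10 had 10 counts in EGFR-DN replicate 1, 6 in EGFR-WT replicate 2 and at most 1 elsewhere. At these counts a change of the 21 genes was not detectable, and none is claimed or excluded.

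Promoter sequence is shown for the most abundant member, for a silent one, and for Hoxa10 and Hoxa7, whose groups separate below. Each run holds 250 bases before and 50 after a gene start, from RefSeq on GRCm38.p6, an earlier build than the one named for the counts, and capitals mark CG dinucleotides. The promoter set available here covered 22 of the 39 genes, with 24 starts, which does not mean that RefSeq lacks the others.
Hoxa9 (chr6:52227321-52227620, minus strand): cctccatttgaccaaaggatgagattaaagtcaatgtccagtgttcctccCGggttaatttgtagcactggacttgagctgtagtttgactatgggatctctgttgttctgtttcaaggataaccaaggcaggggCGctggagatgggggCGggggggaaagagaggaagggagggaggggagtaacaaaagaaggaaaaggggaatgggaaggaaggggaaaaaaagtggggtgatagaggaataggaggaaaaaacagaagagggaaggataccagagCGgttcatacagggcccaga
Hoxa10, downstream start (chr6:52234890-52235189, minus strand): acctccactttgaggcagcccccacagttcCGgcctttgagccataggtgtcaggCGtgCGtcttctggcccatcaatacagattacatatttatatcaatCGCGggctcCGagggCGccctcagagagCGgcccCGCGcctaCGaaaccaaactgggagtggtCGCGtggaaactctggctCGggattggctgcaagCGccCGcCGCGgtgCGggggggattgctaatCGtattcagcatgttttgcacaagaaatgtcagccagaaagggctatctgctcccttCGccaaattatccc
Hoxa10, upstream start (chr6:52240805-52241104, minus strand): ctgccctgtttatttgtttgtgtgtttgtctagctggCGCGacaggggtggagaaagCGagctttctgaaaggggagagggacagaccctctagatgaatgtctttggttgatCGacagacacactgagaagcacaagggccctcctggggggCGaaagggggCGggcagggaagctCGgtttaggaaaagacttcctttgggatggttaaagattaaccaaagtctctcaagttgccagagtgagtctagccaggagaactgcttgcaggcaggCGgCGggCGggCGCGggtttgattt
Hoxa7 (chr6:52218524-52218823, minus strand): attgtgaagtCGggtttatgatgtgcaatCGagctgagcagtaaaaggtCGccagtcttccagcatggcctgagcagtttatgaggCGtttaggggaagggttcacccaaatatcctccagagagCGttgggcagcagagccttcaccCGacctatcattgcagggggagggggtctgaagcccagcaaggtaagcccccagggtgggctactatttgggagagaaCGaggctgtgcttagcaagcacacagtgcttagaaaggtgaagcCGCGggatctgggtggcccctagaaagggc
Hoxd13 (chr2:74667975-74668274, plus strand): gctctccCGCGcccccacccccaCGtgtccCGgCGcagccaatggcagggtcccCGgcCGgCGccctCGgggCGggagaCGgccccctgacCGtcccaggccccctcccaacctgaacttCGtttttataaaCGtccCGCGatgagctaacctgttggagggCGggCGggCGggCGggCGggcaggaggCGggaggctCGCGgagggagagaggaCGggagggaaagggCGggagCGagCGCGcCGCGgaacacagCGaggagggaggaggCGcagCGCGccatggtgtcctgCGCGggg
The most abundant HOX gene, Hoxa9, had 4 CG dinucleotides in this window, and Hoxd13, which patterns the digits and was silent here, had 37. The starts of Hoxa10 had 21 and 12, and that of Hoxa7 had 9. Over the 22 genes covered, 10 starts of genes of at least 1 CPM had a median of 13.5. The 14 starts of genes under 1 CPM, most of them of Hoxd genes, had a median of 17.5, against 7 for 32851 starts of all genes. Both sets of HOX starts thus had a median above that of all genes. The motif TGATNNAT, bound by HOX and PBX together, was in 4 of the 24 windows (16.7%, against 8.85% of all windows), namely at Hoxa2, Hoxb8, Hoxb1 and the start of Hoxd11 with 25 CG. The MEIS motif TGACAG was at Hoxa2 and Hoxa3 (8.33% against 19.2%). A CCAAT box was in 15 windows (62.5% against 37.4%), and the E-box CACGTG in 5, all of Hoxd genes (20.8% against 7.15%). Both strands were searched and matches may overlap. A match is a description of the letters and not a bound site.

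The comparison of EGFR-DN with EGFR-WT asks which transcripts of these cells differ when the truncated receptor is made. None of the 18 HOX genes tested passed the threshold, an edgeR adjusted p of 0.05 over all 19313 genes tested, of which 1 gene, Egfr, passed (0.00518%). At an unadjusted p under 0.05 there was 1 HOX gene, Hoxa10, against 6.69% of all genes in either direction. It was lower, as were 2.40% of all genes, while 0 HOX genes and 4.30% of all genes were higher. DESeq2 called 0 HOX genes and gave no adjusted p for Hoxb7 and Hoxc4 (2 at an unadjusted p under 0.05, Hoxa10 and Hoxb2) while it called 0.699% of all genes, and limma-voom called 0 (1 at an unadjusted p under 0.05). The log2 fold change, EGFR-DN over EGFR-WT, was below 0 for 11 of the 18, against 49.0% of all genes, and its median was −0.18 against 0.01 over all genes. The 3 EGFR-DN libraries lay wholly below the 3 EGFR-WT libraries for 2 HOX genes, Hoxa10 and Hoxb4 (8.72% of all genes), and wholly above for 1, Hoxa7 (9.21%). Such separation in either direction was seen for 17.9% of all genes. In bulk RNA, fewer cells of a type and less RNA per cell cannot be told apart.

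**Figure D2:**
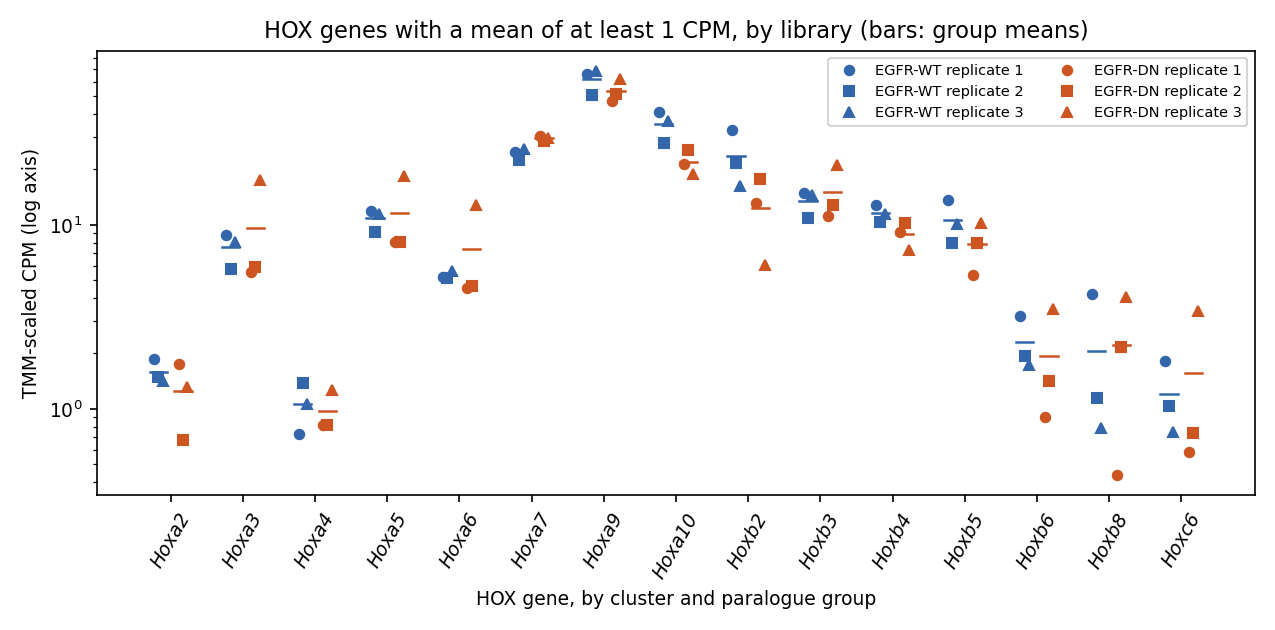
Scaled CPM (log axis) of the 15 HOX genes with a mean of at least 1 CPM, 1 point per library, with group means as bars. Hoxa10 in the EGFR-DN libraries sits between 18.9 and 25.5 CPM, below the EGFR-WT range of 27.8 to 41.2, and of the other genes only Hoxb4 and Hoxa7 have groups that do not overlap.

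Hoxa10 was the HOX gene with the smallest p. It was at 41.2, 27.8 and 36.4 CPM in EGFR-WT replicates 1 to 3 and at 21.3, 25.5 and 18.9 CPM in EGFR-DN replicates 1 to 3. The groups did not overlap, and the gap between EGFR-WT replicate 2 and EGFR-DN replicate 2 was small. The log2 fold change was −0.68 (SE 0.20, unadjusted p = 0.0112, adjusted p = 0.690), lower in 3 of 3 libraries. Without EGFR-DN replicate 3 it was −0.59 (SE 0.17, adjusted p = 0.206), and over the 15 alternatives the adjusted p ranged from 0.206 to 0.912. With the adjusted p above the threshold in each, no change of Hoxa10 was established.

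Hoxa7 was the 1 member whose EGFR-DN libraries were all higher. It was at 24.8, 22.6 and 25.9 CPM in EGFR-WT and 30.5, 28.3 and 29.6 CPM in EGFR-DN. Replicates of each group lay close together, and the log2 fold change was 0.27 (SE 0.14, adjusted p = 0.690; 0.26 without EGFR-DN replicate 3). With scaling by library size alone the Hoxa7 groups overlapped. Part of Hoxa7 (586 of 2876 exon bases) is also annotated to the opposite-strand RNA Hoxaas3, and the library kit does not mark strand, so reads of both may be mixed. Hoxa9, which lies between these genes, was at 65.99, 50.5 and 68.5 CPM in EGFR-WT and 47.3, 51.03 and 61.7 CPM in EGFR-DN. Its groups overlapped, with a log2 fold change of −0.21 (SE 0.18, adjusted p = 0.714), and −0.33 without EGFR-DN replicate 3 (adjusted p = 0.338).

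Hoxa3, Hoxa5 and Hoxa6 set EGFR-DN replicate 3 apart from its group. Hoxa3, a gene of pharyngeal and thymus development, was at 8.77, 5.78 and 8.04 CPM in EGFR-WT and 5.51, 5.87 and 17.5 CPM in EGFR-DN. Hoxa5 was at 11.9, 9.11 and 11.5 against 8.05, 8.11 and 18.5 CPM. Hoxa6 was at 5.18, 5.14 and 5.60 against 4.52, 4.68 and 12.8 CPM. For all 3 the highest library was EGFR-DN replicate 3, and its EGFR-DN partners were below the EGFR-WT range or in its lower part. Their log2 fold changes were 0.35, 0.08 and 0.46 with all libraries and −0.41, −0.43 and −0.21 without that library (adjusted p = 0.464, 0.326 and 0.682). Hoxa2, which patterns the hindbrain, was at 1.87, 1.49 and 1.42 against 1.75, 0.681 and 1.32 CPM (log2 fold change −0.35, SE 0.41, adjusted p = 0.750). Hoxa4 was at 0.731, 1.39 and 1.06 against 0.817, 0.823 and 1.27 CPM (−0.14, SE 0.40, adjusted p = 0.881, and −0.38 without EGFR-DN replicate 3). Both sets of groups overlapped. Exons of Hoxa3 and Hoxa4 also share bases with opposite-strand genes, at most 503 of 6014 (Hoxaas2) and 255 of 1594 (Gm29430) with any 1. In all, 6 of the 15 genes of at least 1 CPM have such an overlap, Hoxb5 among them (100 of 2786 bases).

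Among Hoxb genes, Hoxb2 had the widest difference of the abundant members. It was at 32.5, 21.7 and 16.3 CPM in EGFR-WT and 13.1, 17.8 and 6.09 CPM in EGFR-DN, so EGFR-DN replicate 2 lay above EGFR-WT replicate 3. The log2 fold change was −0.92 (SE 0.42, adjusted p = 0.690) and −0.61 (SE 0.28, adjusted p = 0.402) without EGFR-DN replicate 3. Exons of Hoxb2 share 953 of 3488 bases with the opposite-strand RNA Hoxb3os. Hoxb4 was at 12.9, 10.4 and 11.5 CPM in EGFR-WT and 9.19, 10.3 and 7.30 CPM in EGFR-DN. These groups did not overlap but EGFR-DN replicate 2 and EGFR-WT replicate 2 nearly met. The log2 fold change of Hoxb4 was −0.37 (SE 0.20, adjusted p = 0.690) and −0.25 (SE 0.15) without EGFR-DN replicate 3. Hoxb5 was at 13.7, 7.91 and 10.1 against 5.37, 7.94 and 10.2 CPM, with overlapping groups and a log2 fold change of −0.43 (SE 0.31, adjusted p = 0.695), and −0.67 without EGFR-DN replicate 3 (adjusted p = 0.348). Hoxb3, which shares 2250 of 4251 exon bases with Hoxb3os, was at 14.9, 10.9 and 14.5 against 11.1, 12.9 and 21.05 CPM (log2 fold change 0.16, SE 0.28; −0.16 without EGFR-DN replicate 3).

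Among the less abundant genes, Hoxb8 varied widely between libraries of the same group. Hoxb8, a gene known for holding myeloid progenitors in an immature state when overexpressed, was at 4.23, 1.15 and 0.789 CPM in EGFR-WT and 0.438, 2.16 and 4.06 CPM in EGFR-DN, a 9.66-fold range. Its log2 fold change was 0.089 (SE 0.88), and −0.67 without EGFR-DN replicate 3. By comparison, Hoxa7 varied 1.35-fold and Hoxb7 1.81-fold over the same libraries. Hoxb6 was at 3.21, 1.95 and 1.74 against 0.904, 1.42 and 3.50 CPM (log2 fold change −0.26, SE 0.54; −0.99 without EGFR-DN replicate 3). Hoxc6 was at 1.81, 1.04 and 0.749 against 0.583, 0.737 and 3.40 CPM (0.35, SE 0.74; −0.87 without it). Hoxb9 (0.982 ± 0.621 against 0.445 ± 0.286 CPM), Hoxc4 (0.684 ± 0.260 against 0.349 ± 0.186) and Hoxb7 (0.571 ± 0.0873 against 0.568 ± 0.165) overlapped between groups (SD, n = 3 each). The log2 fold change was −1.18 for Hoxb9 (SE 0.68) and −1.02 for Hoxc4 (SE 0.54), and without EGFR-DN replicate 3 these were −1.76 and −1.48. None of these passed the threshold, with edgeR adjusted p of at least 0.690 with all libraries, and of 0.300 for Hoxc4, 0.323 for Hoxb9, 0.332 for Hoxb6 and 0.467 for Hoxc6 without that library.

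**Figure D3:**
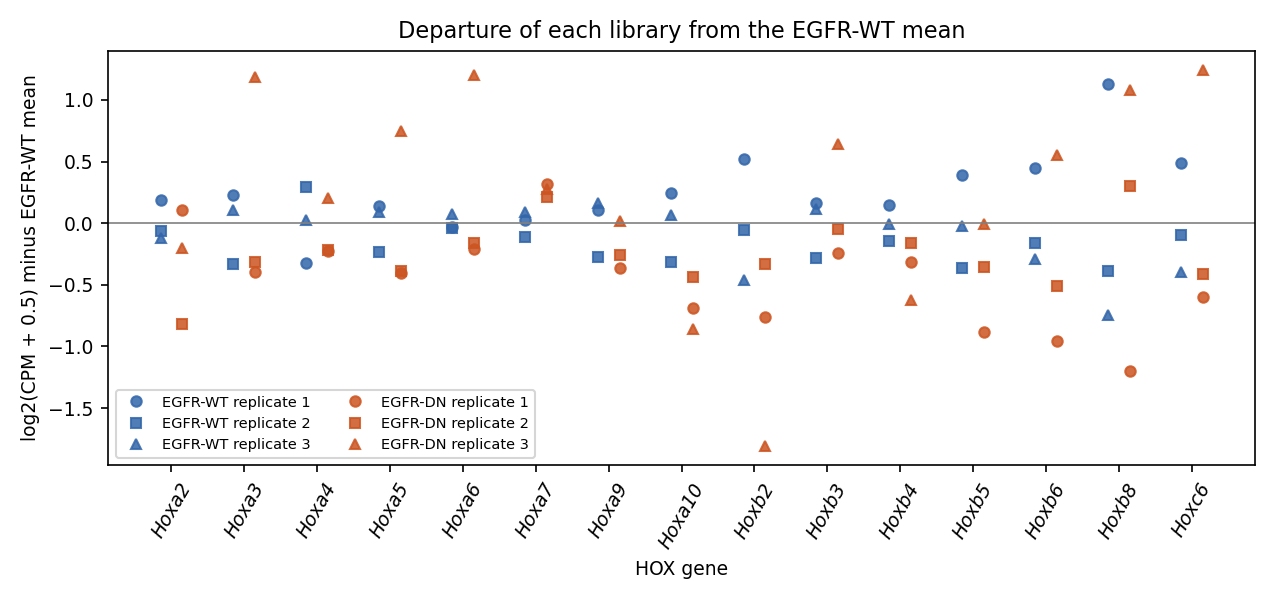
Departure of each library from the EGFR-WT mean, as log2(CPM + 0.5), for the 15 HOX genes of at least 1 CPM, with blue for EGFR-WT, orange for EGFR-DN and a marker shape per replicate. EGFR-DN replicate 3 (orange triangles) is the highest library for 6 genes and the lowest for Hoxa10, Hoxb2 and Hoxb4, whereas EGFR-DN replicate 1 (orange circles) is the lowest for 8.

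Of the 15 genes, EGFR-DN replicate 3 was the highest library for 6 (Hoxa3, Hoxa5, Hoxa6, Hoxb3, Hoxb6 and Hoxc6) and the lowest for 3. EGFR-WT replicate 1 was the highest for another 6, and EGFR-DN replicate 1 the lowest for 8. The median departure of the 18 tested genes from the EGFR-WT mean was 0.21, −0.15 and 0.01 in EGFR-WT replicates 1 to 3 and −0.40, −0.32 and 0.11 in EGFR-DN replicates 1 to 3, on the log2(CPM + 0.5) scale. Without EGFR-DN replicate 3, 16 of the 18 had a log2 fold change below 0 (51.1% of all genes) and the median was −0.42. Then 7 genes, Hoxa5, Hoxa9, Hoxa10, Hoxb5, Hoxb6, Hoxb9 and Hoxc4, were lower at an unadjusted p under 0.05 (6.99% of all genes) and 1, Hoxa7, higher (6.64%). The groups then did not overlap for 8 lower genes (16.1%) and 1 higher gene (15.8%), 31.9% of all genes being so separated in either direction. By the adjusted threshold 0 HOX genes passed, while 0.286% of all genes did. The library left out was also the one with 25.4% of counts in ribosomal RNA genes, and the part of RNA quality in these values was not tested.

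**Figure D4:**
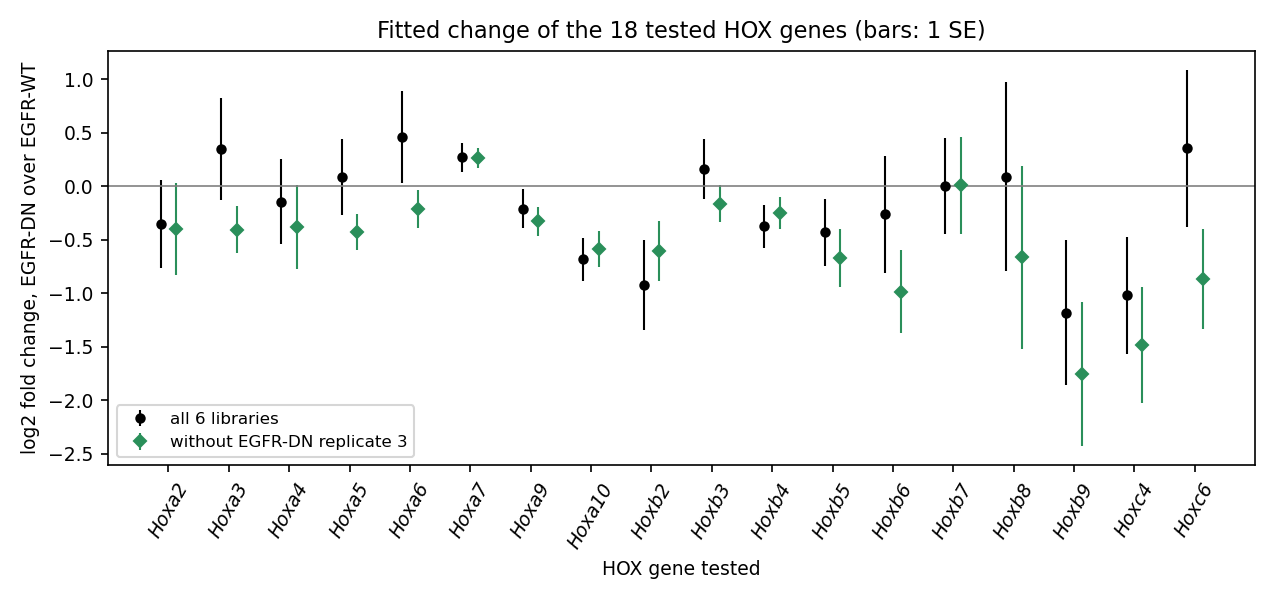
Fitted log2 fold change of the 18 tested HOX genes with bars of 1 SE, with all 6 libraries (black circles) and without EGFR-DN replicate 3 (green diamonds). Hoxa3, Hoxa5, Hoxa6, Hoxb3, Hoxb8 and Hoxc6 change sign when that library is left out, as does Hoxb7, which stays within 0.02 of 0, while Hoxa7 stays at 0.27 and 0.26 and Hoxa10 at −0.68 and −0.59.

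The total over all 39 genes was 248, 181 and 217 CPM in EGFR-WT and 162, 180.1 and 219 CPM in EGFR-DN, with overlapping groups. Hoxa genes made up 64.8%, 68.4% and 73.2% of it in EGFR-WT and 73.8%, 69.5% and 73.7% in EGFR-DN. Hoxb genes made up 33.8%, 30.4% and 26.1% against 25.2%, 29.8% and 24.4%. Both shares overlapped between groups. By paralogue group, group 7 took 10.2%, 12.8% and 12.3% in EGFR-WT and 19.03%, 16.1% and 13.8% in EGFR-DN, and group 10 took 16.6%, 15.5% and 16.8% against 13.3%, 14.1% and 8.60%. These groups, nearly all Hoxa7 and Hoxa10, did not overlap between EGFR-WT and EGFR-DN, as for the single genes. Group 9, almost all of it Hoxa9, had a share of 29.2% ± 2.50 in EGFR-WT and 28.8% ± 0.545 in EGFR-DN (SD, n = 3).

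Noncoding RNAs of the clusters were scarce. Hoxb3os was at 2.18 to 2.51 CPM in EGFR-WT and 1.67 to 2.75 in EGFR-DN, and Hoxaas3 at 1.56 to 2.60 against 1.55 to 3.30. Hoxb5os, on the strand opposite Hoxb5, was at 1.65 to 2.10 against 0.558 to 1.99 CPM, and Hoxblinc, a noncoding RNA of the Hoxb cluster chosen after its values were seen, at 1.41 to 1.89 against 1.17 to 3.70. Hotair had 1 count in all and Hottip 0, and neither was tested. Of the 14 noncoding RNAs listed, 4 were tested and 0 passed the threshold. Of the 15 protein-coding genes beside the clusters, 12 were tested and 0 passed (8 below 0, median −0.14). Evx1 and Evx2, homeobox genes at the ends of the Hoxa and Hoxd clusters, had 1 count each over all libraries.

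The most abundant HOX partner gene, Meis1, exceeded every HOX gene per length. It had 30.8 ± 7.69 CPM per kb (SD over 6 libraries), at the 88.6th percentile, against 10.3 for Hoxa9. Meis1 was at 363, 308 and 301 CPM in EGFR-WT and 246, 263 and 467 CPM in EGFR-DN, with EGFR-DN replicate 3 again highest (log2 fold change 0.01, SE 0.28; −0.35, adjusted p = 0.191, without it). Of 9 partner genes, 8 were tested and 0 passed, with 5 below 0. Groups did not overlap for 4 of the 8 (17.9% of all genes). Without EGFR-DN replicate 3 the median of the 8 went from −0.097 to −0.28, with 6 below 0 (51.1% of all genes). Meis2, a relative of Meis1, was at 2.67, 2.21 and 1.42 against 0.992, 1.36 and 1.07 CPM (−0.88, SE 0.35, unadjusted p = 0.0414, adjusted p = 0.690). The other 3 were the DNA-binding partners Pbx3 (−0.31), Pbx4 (0.33) and Pknox1 (0.24, and 0.13 without EGFR-DN replicate 3), each with an adjusted p of 0.690.

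Genes of the MLL side and of Polycomb did not pass either. Of 17 activators of HOX transcription, 14 were tested, with 12 above 0 (51.0% of all genes) and a median of 0.42. Groups did not overlap for 3 of the 14, all of them higher (9.21% of all genes). Without EGFR-DN replicate 3, 7 of the 14 were above 0 (48.9% of all genes) and the median was −0.0094. Groups then did not overlap for 6 of the 14 (31.9% of all genes), Dot1l, Kdm6b and Aff1 being higher and the others lower. The caudal-type genes Cdx1, Cdx2 and Cdx4, which switch on HOX genes in the embryo, had 0 counts in every library. Dot1l, a histone methyltransferase recruited by MLL fusion proteins, was at 38.4, 43.5 and 45.5 CPM in EGFR-WT and 55.6, 46.7 and 118 CPM in EGFR-DN (log2 fold change 0.79, SE 0.35; 0.26 without EGFR-DN replicate 3). The methyltransferase gene Kmt2b was at 38.7, 43.2 and 43.1 against 44.3, 39.4 and 148 CPM, high in EGFR-DN replicate 3 alone (0.89 with it, 0.0019 without). For Kdm6b, a histone demethylase gene that opposes Polycomb, the log2 fold change was 0.61 (0.16 without EGFR-DN replicate 3), and for the elongation factor gene Aff1 it was 0.44 (0.099 without it). Psip1, which tethers MLL to chromatin and was the most abundant of the list per length, was at −0.04 (SE 0.16; 0.014 without EGFR-DN replicate 3). Among the 20 Polycomb genes, all tested, 12 were above 0 and the median was 0.06. Without EGFR-DN replicate 3, 8 were above 0 and the median was −0.044. Bmi1, needed for HSC self-renewal, was at 79.9, 74.6 and 75.2 against 69.3, 69.2 and 48.7 CPM (−0.29, SE 0.18, adjusted p = 0.690), with groups that did not overlap. Suz12, the most abundant per length, was at −0.12 (SE 0.22), Cbx2 at 0.37 (SE 0.21) and Phc3 at 0.68 (SE 0.41). Without EGFR-DN replicate 3, Phc3 was at −0.0036, Cbx2 at 0.15, Bmi1 at −0.15 and Suz12 at 0.074.

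Markers of stem cells and of other marrow cells are given beside these values. Their counts and sums include EGFR-DN replicate 3 and were not recomputed without it. None of their genes passed the threshold, which 0.00518% of all genes did. An unadjusted edgeR p under 0.05 was reached upwards by 4.30% of all genes and downwards by 2.40%. Higher were 5 of 7 neutrophil, 5 of 6 monocyte, 6 of 9 lymphoid-primed and 2 of 5 B cell genes. Higher too was 1 gene each of the stromal, endothelial, T cell and erythroid lists. Lower were 3 of 10 HSC markers and 0 genes of the other lists. Among these marker lists, the sums did not overlap between groups only for the neutrophil, monocyte, B cell and stromal lists. Of the 10 HSC markers, 7 were below 0, and their sum was 1773 to 2104 CPM in EGFR-WT and 1330 to 3709 in EGFR-DN, with the highest in EGFR-DN replicate 3. The summed level of 8 neutrophil granule genes was 368 to 531 CPM in EGFR-WT and 773 to 1419 in EGFR-DN, with 7 of 7 tested genes above 0 and Ltf, Camp and Ngp each at or under 3.74 CPM. The 6 monocyte genes summed to 28.8 to 40.9 against 56.7 to 108 CPM, with 6 of 6 above 0. The 9 genes of lymphoid-primed and multipotent progenitors summed to 710 to 873 against 861 to 1634 CPM, with 9 of 9 above 0. Those of B cells summed to 34.7 to 43.5 against 43.8 to 61.04, of T cells to 12.2 to 16.4 against 14.7 to 32.1, of erythroid cells to 200.3 to 345 against 300.2 to 547, and of megakaryocytes to 527 to 957 against 692 to 799 CPM. Endothelial genes summed to 117 to 138 against 126 to 217 CPM, with 4 of 5 tested genes below 0 and 1 above. Cdh5 was at or under 0.507 CPM, so the sum came from the other members of that list. Marrow stroma also expresses HOX genes. Its 8 markers summed to 36.6 to 56.2 against 64.8 to 81.3 CPM, with 3 of 5 tested genes above 0 and 2 below. Pdgfrb made up most of the sum, while Col1a1, Col3a1, Pdgfra and Prrx1 were each at or under 0.710 CPM. The rest of the list is Cxcl12, Lepr and Col1a2, whose levels are not given here. No marker of these lists was at 0 in all 6 libraries. The part of these cells in the HOX values was not tested.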

How the data were processed

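RNA of 6 libraries was measured. Per the labels' protocols, oligo(dT)-primed SMART-Seq V4 cDNA was made into Nextera XT libraries, which carry no strand mark, and read on a NovaSeq. The deposited table holds the authors' unscaled estimated counts for each gene symbol. Build mm39, DRAGEN, DESeq2 1.40.2 and R 4.3.1 are listed in the submitters' processing notes, without their roles. Estimated counts were rounded. In R 4.3.3, genes were filtered with filterByExpr, scaled with TMM, and tested with the two-sided edgeR 4.0.16 quasi-likelihood test, with Benjamini-Hochberg adjustment over all genes. SE is the log2 fold change over the square root of F. Alternatives used DESeq2 1.42.0, limma 3.58.1, other scalings, filters, a replicate block, removal of 27 genes that collect ribosomal RNA reads, and each library left out. Scripts were tested on simulated data. Exon lengths came from GENCODE on GRCm38, for 39 HOX genes and 86.5% of tested genes. Counts of Hoxa3, Hoxa7, Hoxa10, Hoxb2 and Hoxb3 were not whole numbers, and how reads shared between genes were assigned is not given in the sources used here. No pair of libraries was a duplicate (smallest chi-square per degree of freedom 14.9). Floors cover counting error only. HOX genes of at least 1 CPM were described in full, with up to 4 genes of smallest p and the most abundant gene of each other list, except items not reported here. Members and lists were chosen with earlier results of these data known.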

Additional observations from a re-analysis of the deposited data

How the results depend on the processing

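No HOX gene, HOX partner, activator or Polycomb gene passed the threshold in any of the 15 alternatives. The count of all genes past it was 135 with DESeq2, 0 with limma-voom, and 0 to 57 with 1 library left out (57 without EGFR-DN replicate 3, 0 without any 1 EGFR-WT replicate). For the HOX genes tested, the median log2 fold change ranged from −0.42 (without EGFR-DN replicate 3) to 0.019 (without EGFR-DN replicate 1), and the number with non-overlapping groups from 3 to 9 with 1 library left out. It was 9 without EGFR-DN replicate 3 (31.9% of all genes) and 5 without EGFR-WT replicate 2 (25.3%) or 3 (27.3%), and separation is more frequent with fewer libraries. Library size alone moved the median of all genes to −0.10 from 0.01, and the HOX median relative to it was then −0.21. With the other scalings, Hoxa10 and Hoxb4 kept non-overlapping groups, and Hoxa7 did except with library size alone.

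Of the 15 HOX genes of at least 1 CPM, 7 (Hoxa2, Hoxa7, Hoxa9, Hoxa10, Hoxb2, Hoxb4 and Hoxb5) kept 1 direction throughout. The others changed sign, and the cause was not tested. With library size alone Hoxa5 was at −0.096 and Hoxb8 at −0.11. With limma-voom Hoxa5 was at −0.080, Hoxb8 at −0.15 and Hoxc6 at −0.17. With 1 library left out the ranges were −0.41 to 0.62 for Hoxa3, −0.38 to 0.099 for Hoxa4, −0.43 to 0.28 for Hoxa5, −0.21 to 0.71 for Hoxa6, −0.16 to 0.33 for Hoxb3, −0.99 to 0.079 for Hoxb6, −0.67 to 1.15 for Hoxb8 and −0.87 to 0.75 for Hoxc6. With the replicate block, Hoxa5 was at −0.021 and Hoxc6 at −0.029, the HOX median was −0.16, 0 HOX genes and 1 gene in all passed. Deviations of same-numbered libraries correlated at −0.023, 0.052 and 0.064, so the numbers were not taken to pair them. Not every library correlated best with its own number.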

Other observations

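Ratios of HOX transcripts within a library, which do not depend on scaling between libraries, were chosen after their values were seen and carry no test. Counts of Hoxa7 over those of Hoxa10, which lie on either side of Hoxa9, were 0.602, 0.811 and 0.712 in EGFR-WT replicates 1 to 3 and 1.43, 1.11 and 1.57 in EGFR-DN replicates 1 to 3. The groups did not overlap. Since Hoxa7 and Hoxa10 separated in opposite directions above, this ratio had to separate, with EGFR-DN replicate 3 or without it. Hoxa9 over Hoxa10 was 1.60, 1.81 and 1.88 against 2.22, 2.00 and 3.27. Hoxb2 over Hoxb3 was 2.18, 2.00 and 1.12 against 1.18, 1.38 and 0.288, with groups that overlapped. Hoxb3 over Hoxb4 was 1.05 to 1.26 in the 5 other libraries and 2.88 in EGFR-DN replicate 3.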
